A study of Homo sapiens with 3 samples.

Results

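A set of 4 mature microRNAs known from neurons, hsa-miR-9-5p, hsa-miR-9-3p, hsa-miR-128-3p and hsa-miR-129-5p (written below without the prefix of the species), was examined in small RNA libraries of CAL-27 cells. CAL-27 is an established cell line derived from a human tongue carcinoma of squamous type. They were chosen by name, and all 4 have a row among the 1149 human miRNAs of the deposited table. There were 3 libraries, 1 in each of 3 groups. CC came from control clones without irradiation, Mock from clones exposed once to 2 Gy of X-rays, and RR from radioresistant single-cell clones that had received 2 Gy a day in 2 cycles of 5 days, with 2 weeks of recovery after each cycle. All were made from the same parental line, and the labels do not say how many clones a library holds. The tags for treatment leave room for doubt, because the one that names 2 Gy is on RR and the one that names irradiation alone is on Mock. The title Mock does not itself name an exposure. Mock and RR mean here the libraries that carry these titles.

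A miRNA is cut from a hairpin transcript as a short strand from the 5′ arm (5p) or the 3′ arm (3p). Its seed, bases 2 to 8 from the 5′ end, pairs with target mRNAs and largely sets which of them are repressed. miR-9 is made in neural progenitors, where its 5p strand represses the transcriptional repressor REST and the nuclear receptor NR2E1, and its 3p strand represses the REST partner RCOR1. miR-128-3p is abundant in neurons, restrains their excitability and represses the Polycomb protein BMI1. miR-129-5p is a brain miRNA that represses the transcription factor SOX4.

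The mature sequences are shown because they set both the targets and which reads can be told apart. Capitals mark the seed, and the letters were taken from RefSeq (GRCh38.p14), where they were the same as those of the deposited table.
miR-9-5p: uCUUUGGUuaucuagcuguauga
miR-9-3p: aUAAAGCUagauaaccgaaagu
miR-128-3p: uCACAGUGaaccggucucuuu
miR-129-5p: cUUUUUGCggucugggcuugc
The 4 seeds differ from each other. No other listed miRNA lay within 2 mismatches of any of the 4 over 18 or more bases, so close relatives with shared reads were not found for them. miR-9-5p has 23 bases and a GC content of 34.8%, miR-9-3p 22 bases and 31.8%, miR-128-3p 21 bases and 47.6%, and miR-129-5p 21 bases and 57.1%.

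Each of the 4 can come from several loci. Both arms of miR-9 are identical in the 3 hairpins shown next, in which capitals mark the 5p arm and then the 3p arm, so reads of miR-9 cannot be assigned to a locus.
MIR9-1: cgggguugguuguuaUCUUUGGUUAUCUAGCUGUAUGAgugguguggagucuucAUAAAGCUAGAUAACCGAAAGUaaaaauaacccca
MIR9-2: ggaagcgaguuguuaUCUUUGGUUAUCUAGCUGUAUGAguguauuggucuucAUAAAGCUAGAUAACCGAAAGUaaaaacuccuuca
MIR9-3: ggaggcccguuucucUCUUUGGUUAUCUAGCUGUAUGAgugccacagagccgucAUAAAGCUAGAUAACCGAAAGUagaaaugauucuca
On GRCh38, MIR9-1 lies at chr1:156420341-156420429 on the minus strand, within introns of the protein-coding gene C1orf61. MIR9-2 lies at chr5:88666853-88666939 on the minus strand in the long non-coding RNA gene LINC00461, where 5 of the 10 annotated transcripts over it have an exon there. MIR9-3 lies at chr15:89368017-89368106 on the plus strand, within introns of the long non-coding RNA gene MIR9-3HG. miR-128-3p is cut from MIR128-1, at chr2:135665397-135665478 in introns of R3HDM1, and from MIR128-2, at chr3:35744476-35744559 in introns of ARPP21, a gene of neurons. The sequence of miR-129-5p is held by MIR129-1, at chr7:128207872-128207943 with no annotated gene over it, and by MIR129-2, at chr11:43581394-43581483 in introns of non-coding transcripts. Host genes are those of GENCODE release 29, on the strand of the hairpin.

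CC, Mock and RR held 10769990, 10632785 and 10473400 reads by the totals to which the deposited values were scaled, and reads of listed miRNAs made up 16.3%, 23.2% and 20.5% of it. With 1 library per group no difference has a replicate check, so no test was made and no p-value is given. Intervals are exact 95% limits from read counts. They cover counting error only, not differences between replicates. PCR copies of a molecule are counted as separate reads, so the limits can be too narrow even for that. Of the 5 squamous epithelial markers all had reads, and in CC, Mock and RR their levels summed to 37902, 28369 and 44137 rpm (reads per 1000000 reads of the total). The low sum of Mock came with miR-205-5p, an epithelial miRNA, at 25945, 14174 and 29651 rpm. The other squamous markers were lowest in CC. miR-200c-3p stood at 11739, 13918 and 14183 rpm and miR-31-5p at 179, 219 and 240 rpm. miR-141-3p stood at 16.6, 34.4 and 23.9 rpm. miR-203a-3p stood at 22.8, 23.7 and 39.2 rpm, with overlapping intervals for CC and Mock. The neuronal markers miR-124-3p and miR-137-3p were not analysed here.

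miR-128-3p was the most abundant of the 4 in each library, followed by miR-9-5p, miR-9-3p and miR-129-5p, and this order was the same in CC, Mock and RR. Together they gave 0.357% of the miRNA reads of CC, 0.348% of those of Mock and 0.348% of those of RR. Neighbours in that order did not have overlapping counting intervals in any library. The distance between miR-128-3p and miR-9-5p was smallest in Mock, where miR-128-3p stood 1.59-fold above miR-9-5p, against 2.34-fold in CC and 2.11-fold in RR.

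**Figure D1:**
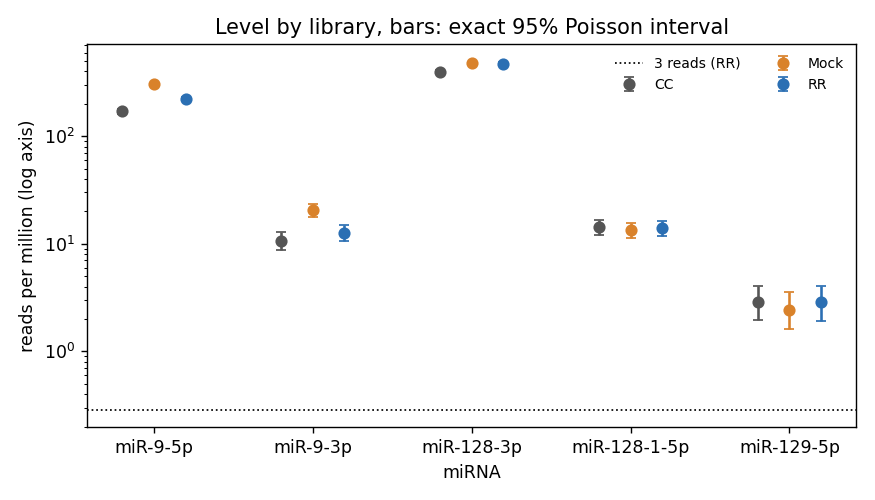
Level of the 4 miRNAs and of miR-128-1-5p (x axis) in rpm on a log axis (y axis), 1 point per library (CC grey, Mock orange, RR blue) with its exact 95% Poisson interval; the dotted line is 3 reads in RR. miR-9-5p and miR-9-3p are highest in Mock, whereas the 3 points of miR-129-5p lie within each other's intervals.

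miR-9-5p, the main strand of miR-9, stood at 170.0 rpm in CC (1831 reads, interval 162 to 178), 303 rpm in Mock (3220 reads, 292 to 313) and 224 rpm in RR (2348 reads, 215 to 233). The 3 intervals did not overlap, with CC lowest and Mock highest. It ranked 70th among all listed miRNAs in CC, 62nd in Mock and 68th in RR. miR-9-3p stood at 10.7 rpm in CC (115 reads, 8.82 to 12.8), 20.5 rpm in Mock (218 reads, 17.9 to 23.4) and 12.7 rpm in RR (133 reads, 10.6 to 15.1). Here CC and RR overlapped, and Mock lay above both.

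miR-128-3p stood at 397 rpm in CC (4276 reads, 385 to 409), 481 rpm in Mock (5116 reads, 468 to 495) and 473 rpm in RR (4954 reads, 460 to 486). CC lay below the other libraries, whose intervals overlapped each other. A library pools many cells, so a change in the number of cells that hold a miRNA and a change in its level per cell cannot be told apart. Its rank was 49th in CC, 49th in Mock and 48th in RR. miR-129-5p stood at 2.88 rpm in CC (31 reads, 1.96 to 4.09), 2.45 rpm in Mock (26 reads, 1.60 to 3.58) and 2.86 rpm in RR (30 reads, 1.93 to 4.09). Its 3 intervals overlapped throughout, and its levels lay above the floor of 3 reads, which is 0.279, 0.282 and 0.286 rpm in CC, Mock and RR.

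RR over CC compares radioresistant with untreated cells, if the titles hold. Differences were counted over the 208 miRNAs whose mean in the 3 libraries reached 10 rpm, a filter that 3 of the 4 passed and miR-129-5p did not. None of the 3 differed by 2-fold, as log2 of (rpm + 1), beside 1.44% of all 208. miR-9-5p was 1.32-fold higher in RR (interval 1.24 to 1.40) and miR-128-3p 1.19-fold higher (1.14 to 1.24). miR-9-3p had a ratio of 1.19 (0.920 to 1.54) and miR-129-5p of 0.995 (0.582 to 1.70), both with intervals that include 1. An interval above 1, as for 2 of the 3, was found in 75.0% of the 208 miRNAs, so it says little of these.

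The log2 ratios were 0.40 for miR-9-5p, 0.25 for miR-128-3p, 0.23 for miR-9-3p and -0.01 for miR-129-5p. Those of the first 3 lay between the lower and upper quartiles of the 208 miRNAs, 0.19 and 0.50, around a median of 0.36. The positive values rest on the scale of the table. With median-ratio scaling, which takes the median of all 208 to -0.02, miR-9-5p stood at 0.01, miR-128-3p at -0.13 and miR-9-3p at -0.12. The split of all miRNAs past 2-fold was 2 higher and 1 lower as deposited, and 0 and 2 with that scaling.

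**Figure D2:**
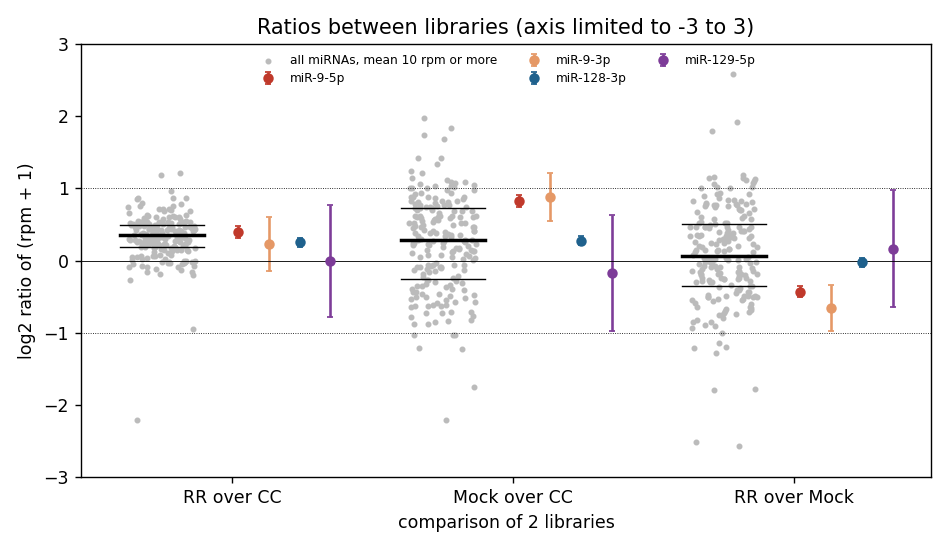
Log2 ratio of (rpm + 1) between libraries (y axis) for the 3 comparisons (x axis): grey points are the 208 miRNAs whose mean reached 10 rpm, thick and thin black lines their median and quartiles, coloured points the 4 miRNAs with their counting interval, and dotted lines mark 2-fold. The axis leaves out 4 miRNAs of the Mock over CC column and 2 of the RR over Mock column; none of the coloured points is past 2-fold.

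On the reading of the titles used here, Mock over CC compares a single exposure with none. Both arms of miR-9 were higher in Mock, miR-9-5p 1.78-fold (1.68 to 1.89) and miR-9-3p 1.92-fold (1.53 to 2.43). miR-128-3p was 1.21-fold higher (1.16 to 1.26), and miR-129-5p had a ratio of 0.850 (0.484 to 1.48). On the log2 scale the values were 0.83, 0.88, 0.28 and -0.17, so none of the 3 past the filter differed by 2-fold, beside 15.9% of all 208. Intervals lay above 1 for all 3, beside 56.7% of all. Both arms of miR-9 lay above the upper quartile of all 208 miRNAs, 0.73, and miR-128-3p at their median, 0.28. The split of all miRNAs past 2-fold, 25 higher and 8 lower, was 10 and 18 with median-ratio scaling, 10 and 19 with the 10 leading miRNAs left out of the total, and 7 and 31 when each value was divided by all miRNA reads of its library. In that last form miR-9-5p kept a log2 ratio of 0.32 and miR-9-3p of 0.40, whereas miR-128-3p stood at -0.23 and the median of all at -0.22.

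The ratios to Mock moved with the GC content of the miRNA, and the 4 follow their own order of GC content. Over the 208 miRNAs the log2 ratio Mock over CC fell by 0.29 for each 10 percentage points of GC content (Spearman correlation -0.55, across miRNAs that share their libraries). The 27 other miRNAs within 5 points of the GC content of miR-9-5p had a median of 0.77, with quartiles of 0.55 and 0.96, beside its own 0.83, and 10 of them stood higher. Around miR-9-3p the 25 such miRNAs had a median of 0.74 beside 0.88, and 6 stood higher. Around miR-128-3p the 75 such miRNAs had a median of 0.37 beside 0.28. With the linear trend removed miR-9-5p stood at 0.39, miR-9-3p at 0.36, miR-128-3p at 0.21 and miR-129-5p at 0.03, beside 0.32 for all 208. Both arms of miR-9 then lay near the median of all miRNAs.

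**Figure D3:**
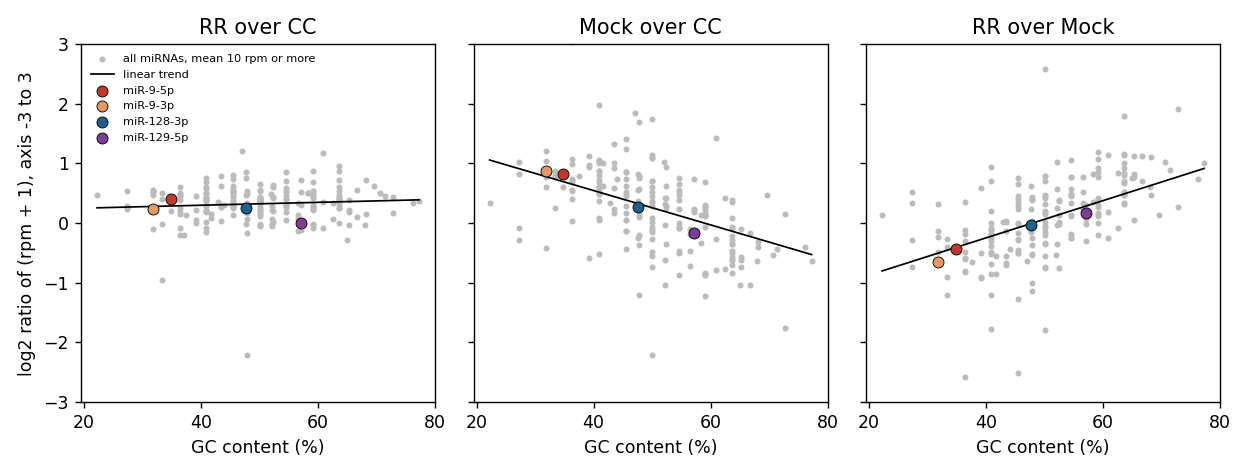
GC content of the miRNA in percent (x axis) against the log2 ratio of (rpm + 1) (y axis, limited to -3 to 3) for the 3 comparisons: grey points are the 208 miRNAs whose mean reached 10 rpm, the line is their linear trend and coloured points are the 4 miRNAs. In Mock over CC the coloured points descend from 0.88 for miR-9-3p to -0.17 for miR-129-5p along the trend, and in RR over CC the trend is almost flat.

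The Mock library also held more of the blood markers. The 5 analysed of 6 summed to 9.56, 409 and 12.3 rpm in CC, Mock and RR, mostly from miR-486-5p, with miR-144-3p and miR-150-5p at 0 reads in CC and miR-144-3p and miR-142-3p at 0 in RR. The muscle marker miR-206 stood at 1.76, 25.5 and 3.63 rpm, while the sum of the 3 muscle markers, mostly miR-1-3p, was 341, 345 and 408 rpm. The other muscle markers were lowest in Mock, with overlapping intervals for CC and Mock. miR-1-3p stood at 338, 319 and 404 rpm and miR-133a-3p at 1.02, 0.658 and 0.859 rpm. Of the squamous epithelial markers, miR-205-5p alone was lowest in Mock, and the others were lowest in CC, with the levels given above. Whether the source of these blood and muscle miRNAs had a part in the higher miR-9 of Mock was not tested.

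On the same reading of the titles, RR over Mock compares repeated irradiation with a single exposure. miR-9-5p was 1.35-fold lower in RR (ratio 0.740, interval 0.702 to 0.781) and miR-9-3p 1.61-fold lower (0.619, 0.495 to 0.772). miR-128-3p had a ratio of 0.983 (0.945 to 1.02) and miR-129-5p of 1.17 (0.670 to 2.06), both with intervals that include 1. None of the 3 past the filter differed by 2-fold, beside 13.0% of all 208, and intervals lay below 1 for 2 of them, beside 38.9%. The log2 ratios were -0.43 for miR-9-5p and -0.65 for miR-9-3p, both below the lower quartile of -0.35, and -0.02 for miR-128-3p, near the median of 0.06. Without the GC trend they were 0.04, -0.08 and 0.05, beside 0.08 for all. The 3 comparisons share their libraries and are not independent. The split of all miRNAs past 2-fold was 17 higher and 10 lower as deposited, 12 and 10 with median-ratio scaling, 25 and 8 when divided by all miRNA reads, and 7 and 7 without the GC trend.

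The share of the minor arm of a hairpin does not depend on the total used for scaling. miR-9-3p gave 5.91% of the reads of both miR-9 arms in CC (115 of 1946, Clopper-Pearson interval 4.90% to 7.05%), 6.34% in Mock (218 of 3438, 5.55% to 7.21%) and 5.36% in RR (133 of 2481, 4.51% to 6.32%). All 3 intervals overlapped, so no difference in arm use was read from them, though overlap alone does not exclude a difference. The ratio of 5p to 3p reads changed 1.11-fold in RR over CC, 0.928-fold in Mock over CC and 1.20-fold in RR over Mock. Over the 38 hairpins with a mean of at least 10 rpm for each arm, this change of miR-9 stood at the 63.2nd, 34.2nd and 73.7th percentiles. The quartiles of the log2 change were -0.22 and 0.43 for Mock over CC, beside -0.11 for miR-9, and 2 of the 38 hairpins had a smaller change in size.

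miR-128-1-5p and miR-128-2-5p, the opposite arms of miR-128-3p, differ between the hairpins and are shown for that reason, with the differing bases in capitals.
miR-128-1-5p: CggggccgUAGcacuguCUgaga
miR-128-2-5p: GggggccgAUAcacuguACgaga
miR-128-1-5p, which can only come from the R3HDM1 locus, stood at 14.3 rpm in CC (154 reads, 12.1 to 16.7), 13.4 rpm in Mock (142 reads, 11.2 to 15.7) and 13.9 rpm in RR (146 reads, 11.8 to 16.4). The 3 levels overlapped, and its ratio was 0.975 in RR over CC (0.772 to 1.23) and 0.934 in Mock over CC (0.738 to 1.18). It made up 3.48% of the reads of miR-128-1-5p and miR-128-3p in CC (2.96% to 4.06%), 2.70% in Mock (2.28% to 3.18%) and 2.86% in RR (2.42% to 3.36%). These intervals overlapped too, which does not exclude a difference, and no interval was computed for the ratio of the shares. miR-128-2-5p was not analysed here, so the part of the ARPP21 locus in miR-128-3p was not measured.

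**Figure D4:**
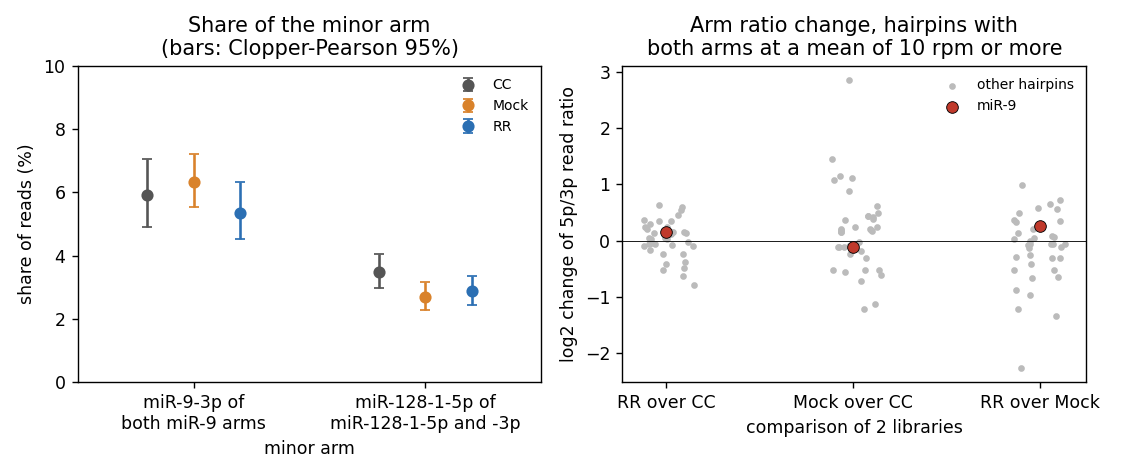
Left, share of the minor arm in percent (y axis) for miR-9 and miR-128 (x axis), 1 point per library with its Clopper-Pearson 95% interval. Right, log2 change of the ratio of 5p to 3p reads (y axis) for the 3 comparisons (x axis) in the 38 hairpins with a mean of at least 10 rpm for each arm; miR-9, in red, lies at 0.15, -0.11 and 0.26, inside the spread of the other hairpins.

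The 3p arms of miR-129 differ by 1 base, in capitals here, and are shown because they mark the locus.
miR-129-1-3p: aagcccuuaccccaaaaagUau
miR-129-2-3p: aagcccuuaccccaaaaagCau
For miR-129-1-3p the libraries CC, Mock and RR held 1, 0 and 3 reads, and for miR-129-2-3p they held 1, 3 and 3. Each count was at or under the floor of 3 reads, so neither locus could be told from the other. The 5p arm gave 93.9% of miR-129 reads in CC (31 of 33, 79.8% to 99.3%), 89.7% in Mock (26 of 29, 72.7% to 97.8%) and 83.3% in RR (30 of 36, 67.2% to 93.6%), with overlapping intervals.

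The seed of miR-128-3p is also held by other miRNAs, shown with the shared bases in capitals. miR-216a-3p has it at the same place, and miR-27a-3p and miR-27b-3p, which restrain the differentiation of fat cells, 1 base further from the 5′ end.
miR-128-3p: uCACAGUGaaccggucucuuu
miR-216a-3p: uCACAGUGgucucugggauuau
miR-27a-3p: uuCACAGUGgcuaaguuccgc
miR-27b-3p: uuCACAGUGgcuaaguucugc
miR-27a-3p was more abundant than miR-128-3p in every library, with CC, Mock and RR at 1697, 2615 and 2592 rpm, and so was miR-27b-3p, at 581, 856 and 806 rpm. miR-216a-3p had 0, 4 and 1 reads, and miR-9985, which also holds the shifted seed, had 1, 0 and 0. miR-128-3p gave 14.8% of the reads of these 5 miRNAs in CC (14.4% to 15.3%), 12.2% in Mock (11.9% to 12.5%) and 12.2% in RR (11.9% to 12.5%). Its share was thus higher in CC than in both others beyond counting error, and the intervals of Mock and RR overlapped. No other listed miRNA held the seed of miR-9-5p, miR-9-3p or miR-129-5p at these places.

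Of a list of 18 other neural miRNAs 10 were analysed, and 2 of these, miR-7-5p and miR-132-3p, had a mean of 10 rpm or more. miR-7-5p, a miRNA of neurons and endocrine cells that represses EGFR, had levels of 4300, 7892 and 4243 rpm in CC, Mock and RR, above all 4 of the miRNAs described here. Its ratio was 0.9866 in RR over CC (0.9738 to 0.9995, an interval that ends just below 1) and 1.84 in Mock over CC (1.81 to 1.86), and its GC content was 33.3%, close to that of miR-9-5p. miR-132-3p, induced by neuronal activity through CREB, stood at 18.2, 12.7 and 17.9 rpm, with a ratio of 0.698 in Mock over CC (0.556 to 0.873) and 0.981 in RR over CC (0.799 to 1.20). Neither differed by 2-fold in any comparison. The log2 ratios of miR-7-5p and miR-132-3p were 0.88 and -0.49 in Mock over CC and -0.90 and 0.46 in RR over Mock. The median of these 2 was -0.02 in RR over CC, 0.19 in Mock over CC and -0.22 in RR over Mock. It describes neither miRNA where they moved in opposite directions. The medians of all 208 miRNAs were 0.36, 0.28 and 0.06.

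The remaining 8 of these 10 had few reads. miR-218-5p, a miRNA of motor neurons, had levels of 4.92, 5.55 and 5.63 rpm, above miR-129-5p. miR-138-5p, which limits the growth of dendritic spines, had 12, 29 and 11 reads in CC, Mock and RR. Its ratio was 2.45 in Mock over CC (1.21 to 5.27). As log2 of (rpm + 1) that ratio was 0.82, under 2-fold, and miR-138-5p did not pass the filter of 10 rpm. miR-134-5p, miR-153-3p, miR-212-3p, miR-323a-3p, miR-329-3p and miR-338-3p had between 0 and 5 reads in each library. The level of miR-9-5p and miR-128-3p therefore lay far above that of most neural miRNAs analysed, and far below that of miR-7-5p.

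**Figure D5:**
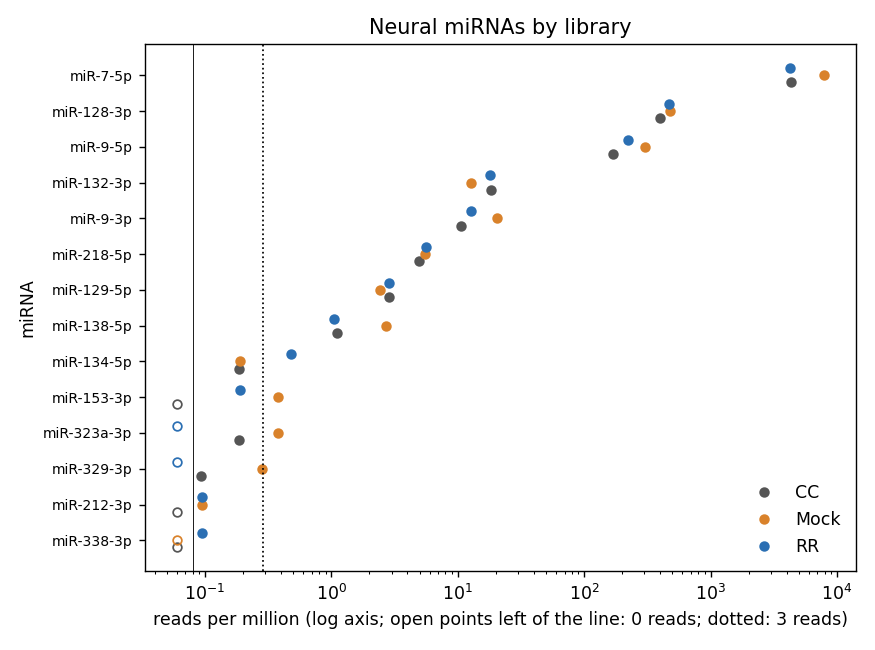
Level in rpm on a log axis (x axis) of the 4 miRNAs and the 10 other neural miRNAs (y axis), 1 point per library (CC grey, Mock orange, RR blue); open points left of the solid line had 0 reads and the dotted line is 3 reads in RR. miR-7-5p lies highest, miR-128-3p and miR-9-5p follow, and 6 miRNAs lie around or under 3 reads.

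Likeness of profile was measured as the distance between log2 of (rpm + 1) in the 3 libraries after each miRNA's mean was subtracted. Nearest to miR-9-5p was miR-26b-5p, with 16.7, 30.1 and 22.5 rpm in CC, Mock and RR (distance 0.021), followed by miR-140-5p and miR-30a-5p (0.044 and 0.047). Nearest to miR-9-3p were miR-18a-5p, miR-222-3p and miR-155-5p (0.034, 0.070 and 0.073), and nearest to miR-128-3p were miR-191-5p, miR-200c-3p and miR-1304-3p (0.036, 0.037 and 0.043). Both arms of miR-9 were 0.16 apart, and 20 of 206 other miRNAs lay nearer to miR-9-5p than its own 3p arm. miR-128-3p lay 0.41 from miR-9-5p, with 82 of 206 nearer. With 3 libraries such a profile holds little information.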

How the data were processed

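Adapters were ligated to total RNA and small RNA libraries were amplified by PCR, per the labels' protocols. Bowtie and GRCh38 are named, without role or version, in the submitters' processing notes; for trimming, the miRNA reference and multiply matching reads, nothing is stated in the labels. The deposited table calls its values TPM. The deposited values behave as RPM: 100% of them were whole multiples, within 0.01 of a read, of 1 step per library, so whole reads were recovered, and the step gave the totals. A count test was not run, as 1 library per group leaves no replicate error.

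Levels have exact Poisson intervals and ratios have exact intervals by the Clopper-Pearson method. Log2 ratios add 1 rpm. Counts took miRNAs whose mean reached 10 rpm, past 2-fold. Ratios, intervals and read recovery were tested on simulated reads drawn with counting error only. Such reads hold no PCR copies and no differences between replicates. Named are the 4 miRNAs, the other arms of their hairpins, miRNAs holding their seed and a neural list. Also named are the 3 nearest profiles of each of the 4 that passed the filter, and cell type markers. miR-486-5p, miR-144-3p, miR-150-5p, miR-142-3p, miR-205-5p, miR-206, miR-1-3p, miR-218-5p and miR-138-5p were named among the markers after their values were seen. So were miR-200c-3p, miR-31-5p, miR-141-3p, miR-203a-3p and miR-133a-3p. Members and lists were chosen with earlier results of these data known. Marker lists were squamous epithelium, blood, muscle, endothelium, mesenchyme, liver, neurons and oligodendrocytes. Endothelial markers summed to 55.2, 66.9 and 81.9 rpm in CC, Mock and RR, mesenchymal ones to 6.41, 5.64 and 6.49, the liver marker to 4.46, 5.45 and 2.96 and the oligodendrocyte marker to 0, 0 and 0.095. The neuronal sum of 587, 815 and 719 rpm includes the 4 members. The other analysed neuronal markers were miR-218-5p at 4.92, 5.55 and 5.63 rpm and miR-138-5p at 1.11, 2.73 and 1.05 rpm. Sequences came from RefSeq, where all 4 members matched. Software was scipy 1.17.1, numpy 2.4.6, matplotlib 3.10.9 and pandas 2.3.3 under Python 3.11.15.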

Additional observations from a re-analysis of the deposited data

How the results depend on the processing

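No paired analysis was possible because each group has 1 library. Of 72 log2 ratios of the 4 miRNAs recomputed under other settings, 49 stayed within the counting interval and 23 did not, and none passed 2-fold. With median-ratio scaling miR-9-5p stood at 0.015 in RR over CC, 0.53 in Mock over CC and -0.51 in RR over Mock, and miR-128-3p at -0.13, -0.026 and -0.11. Divided by all miRNA reads of the library, miR-9-5p stood at 0.064, 0.32 and -0.26, miR-128-3p at -0.082, -0.23 and 0.15, and miR-9-3p at 0.40 in Mock over CC. With the 10 leading miRNAs left out of that total miR-9-5p stood at 0.081 in RR over CC and 0.48 in Mock over CC, and miR-128-3p at -0.065 and -0.072. With the linear GC trend removed miR-9-5p, miR-9-3p and miR-128-3p stood at 0.39, 0.36 and 0.21 in Mock over CC and at 0.043, -0.083 and 0.050 in RR over Mock. A pseudocount of 0.1 or 10 rpm moved none of the 4 outside its interval.

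Counts past 2-fold, in the order RR over CC, Mock over CC and RR over Mock, were 3, 33 and 27 of 208. They were 7, 57 and 50 of 390 with the mean reaching 1 rpm, and 8, 60 and 57 of 1149 with no filter. Of the 208 they were 30, 96 and 76 at 1.5-fold, and 1, 16 and 16 with a pseudocount of 10 rpm. Without the GC trend they were 21 in Mock over CC and 14 in RR over Mock. A filter on CC and RR alone, chosen after the data were seen, gave 4 of 207 in RR over CC. For RR over Mock the arm ratio change of miR-9 stood at the 62.1st percentile of hairpins at any level and at the 73.7th of those with both arms at 10 rpm or more. For miR-129-5p, with 26 to 31 reads, the depth leaves ratios from 0.582 to 1.70 possible in RR over CC.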
